A study of Homo sapiens with 59 samples.

Results

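Human neural stem cells that had been held in CHIR99021 for 30 h were set against cells held in it for 6 h, 24 h less, in 6 of the 59 RNA-seq libraries of a time course, 3 at each exposure (labels A1, A2 and B1). All cells came from WA09 (H9), an established line of human embryonic stem cells, so the results are from 1 line. Every culture, at 30 h and at 6 h alike, was first kept in Essential 6 medium and given FGF8b, then moved to a medium for neuromesodermal progenitors that contained CHIR99021, an inhibitor of GSK3 that activates WNT signalling. The automated platform changed the cells to a neural medium with retinoic acid at the end of the labelled exposure and renewed that medium daily for 4 days before lysis. The exposures differ in total time in culture by the same 24 h, which cannot be told apart from the exposure to CHIR99021. Both exposures are hours at which genes of the hypoxia response were low in earlier work on these libraries, which is why they were chosen. The labels do not say whether A1, A2 and B1 were separate cultures, so the p-values cover variation among these 6 libraries and the rest of the fit, and that variation could be technical.

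HOX genes encode transcription factors that give cells their position between head and tail, and in vertebrates the paralog groups with low numbers are used in the hindbrain and those with higher numbers further down the spinal cord. Neuromesodermal progenitors of the tail bud feed the spinal cord, and WNT and FGF signals there open HOX genes in order along each cluster. Retinoic acid turns such cells to a neural fate and is cleared by CYP26 enzymes, whose own genes it induces. As neuroepithelium forms, the E-cadherin of the early epithelium (CDH1) gives way to N-cadherin (CDH2), and repressors of the SNAI and ZEB families bind E-boxes of the form CACCTG in genes of epithelial cells.

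Promoter stretches of 4 genes that fell are shown first: CYP26A1 for the repeat it holds, and CLDN7, AP1M2 and RAB25 because they are the epithelial genes whose windows hold CACCTG. They were chosen by motif and not for their share of the epithelial RNA. They come from RefSeq's table for GRCh38.p14, and were used for sequence only, since the expression values rest on hg19. CYP26A1 encodes the main retinoic acid hydroxylase, CLDN7 a tight junction protein, AP1M2 a clathrin adaptor subunit of epithelial cells and RAB25 a small GTPase of epithelial cells. In CYP26A1 (chr10:93073798-93073827, plus strand, bases 95 to 66 before the second of 2 listed starts) the capitals mark a pair of retinoic acid receptor half-sites, which read AGTTCA on the other strand and lie 5 bases apart. In the other 3 the capitals mark CACCTG on either strand. CLDN7 is at chr17:7262479-7262508 on the minus strand, directly before the second of 2 starts. AP1M2 is at chr19:10587316-10587562 on the minus strand, from 250 to 4 bases before its start. RAB25 is at chr1:156060910-156061159 on the plus strand, the 250 bases before its start.
CYP26A1: aaagaTGAACTttgggTGAACTaattgtct
CLDN7: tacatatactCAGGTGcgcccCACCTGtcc
AP1M2: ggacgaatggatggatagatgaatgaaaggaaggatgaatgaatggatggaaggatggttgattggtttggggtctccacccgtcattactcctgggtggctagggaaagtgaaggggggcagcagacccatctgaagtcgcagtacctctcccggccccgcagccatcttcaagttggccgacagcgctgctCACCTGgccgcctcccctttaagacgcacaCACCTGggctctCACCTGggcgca
RAB25: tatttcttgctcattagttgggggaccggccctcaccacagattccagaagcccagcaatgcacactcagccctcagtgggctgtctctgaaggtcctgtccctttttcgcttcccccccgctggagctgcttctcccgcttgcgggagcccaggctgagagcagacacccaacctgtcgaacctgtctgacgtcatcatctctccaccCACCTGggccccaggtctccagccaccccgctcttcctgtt

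Among the 35116 windows of 250 bases in that table, the repeat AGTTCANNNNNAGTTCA was found on either strand in 3 (0.0085%), and a single AGTTCA in 8.80%. CACCTG stood in 17.5% of windows on either strand and at 3 or more places, as in AP1M2 and CLDN7, in 163 windows (0.464%). The full window of CLDN7's second start held 4, of which the printed stretch shows 2. Of the 14 epithelial genes that fell, 7 had a window, and 3 of these 7 (42.9%) held CACCTG, against 5635 of the 27305 genes in the table (20.6%). The same search used the TCF/LEF motif CTTTGAT (2.26% of windows), the other retinoic acid half-site AGGTCA (12.1%) and the CDX motif TTTATG (9.64%). A match describes the letters of the window and is not evidence that a factor was bound there.

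Values are TPM, a transcript's share of a library scaled for gene length. TPM keep no sequencing depth, so depth is unknown and no counting interval is given. The 30 h libraries held 12591, 11683 and 12358 genes at 1 TPM or more, and the 6 h libraries 12821, 12668 and 12854. The A2 library of 30 h stood apart from the other 5, with 7154 genes listed at 0, against 5317 to 6204 in the others. Across genes, libraries of 30 h correlated at 0.901 to 0.943 with each other and libraries of 6 h at 0.954 to 0.959, while pairs taken from both exposures correlated at 0.876 to 0.933. Markers of the labelled cell type were present at both exposures. SOX2, a transcription factor of neural progenitors, had 64.7, 60.0 and 53.7 TPM at 30 h, against 25.9, 29.7 and 34.3 TPM at 6 h. PAX6, a paired-box factor of the neural tube, had 129, 146 and 157 TPM at 30 h, against 184, 169 and 179 TPM at 6 h. Summed over all 20 progenitor markers the level was 3553, 3747 and 3811 TPM at 30 h, against 4064, 4073 and 4054 TPM at 6 h. Endothelial and blood markers summed to 15.3, 13.8 and 8.4 TPM at 30 h, against 24.6, 14.2 and 24.5 TPM at 6 h, with TIE1, GATA1, HBG1 and PTPRC listed at 0 in all 6 libraries.

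After 30 h of CHIR99021, 266 genes were higher (1.74%) and 328 lower (2.14%) than after 6 h, together 594 of the 15305 genes tested (3.88%) at an adjusted p under 0.05 with limma on log2(TPM + 1). The median difference over all genes tested was 0 on that scale. At least 1 log2 unit separated the exposures for 173 of the higher genes (1.13% of genes tested) and 283 of the lower ones (1.85%). The 3 libraries of 30 h lay wholly above those of 6 h for 2147 genes (14.0%) and wholly below for 1835 (12.0%). Under all 6 omissions of a single library, 233 of the 594 calls passed (99 higher and 134 lower). The count was 347 without the A2 library of 30 h, 359 without A2 of 6 h and 392 without A1 of 6 h. Leaving out instead the 3 libraries of other exposures that held under 10000 genes (B1 of 4 h, B1 of 42 h and A2 of 72 h) gave 1284 genes (620 higher and 664 lower), among them all 594; the fit takes its spread from all 59 libraries. A fold from log2(TPM + 1) understates the change of genes with low values.

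**Figure D1:**
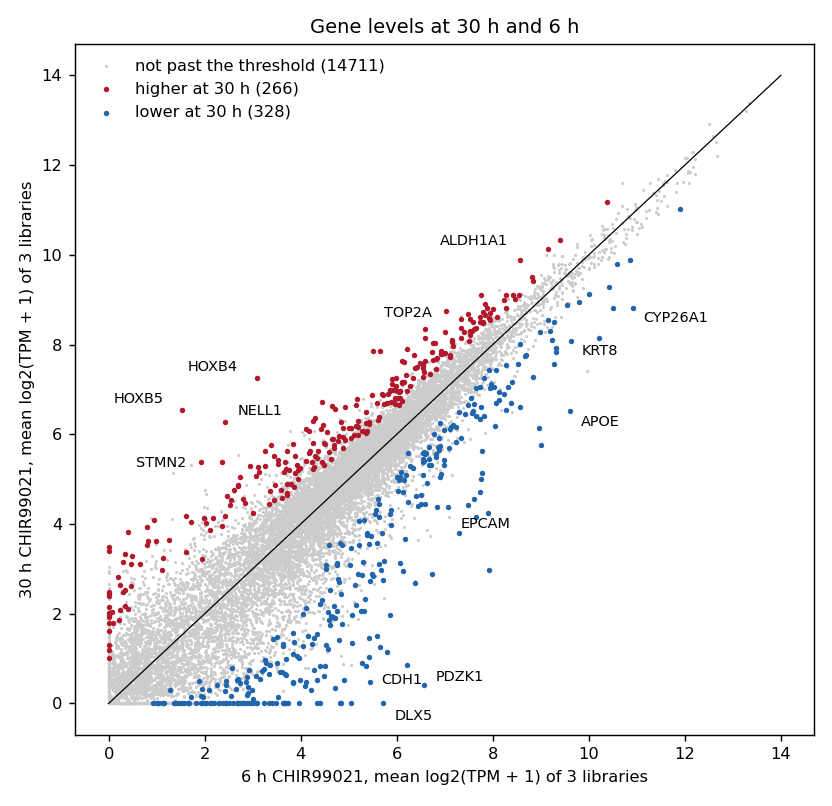
Mean log2(TPM + 1) of each of the 15305 genes tested, at 30 h on the vertical axis and at 6 h on the horizontal axis, 3 libraries each. Coloured points are the 266 genes higher and the 328 lower at adjusted p under 0.05 in limma; PDZK1, DLX5 and CDH1 lie far below the line of equality and HOXB5, HOXB4 and NELL1 well above it.

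The genes in the next paragraphs were chosen among those whose exposures did not overlap, so their separation is a condition of the choice. Apart from HOX genes, the largest rise was in NELL1, which encodes a secreted glycoprotein with EGF repeats. It had 66.7, 68.1 and 96.5 TPM at 30 h, against 2.83, 5.92 and 4.89 TPM at 6 h (log2 difference 3.84, SE 0.43, adjusted p = 2.49e-08). STMN2, a microtubule regulator of growing neurites, had 62.1, 24.1 and 45.1 TPM at 30 h, against 0.73, 3.13 and 6.52 TPM at 6 h (log2 difference 3.47, SE 0.54, adjusted p = 2.56e-05). SOX1, a transcription factor that marks neural plate and neural progenitors, had 19.1, 9.26 and 22.8 TPM at 30 h, against 0.39, 2.06 and 0.7 TPM at 6 h (log2 difference 3.14, SE 0.62, adjusted p = 0.000794). For these 3 genes each call passed without any 1 of the 6 libraries. The other 12 of the 15 largest rises lay between 2.45 and 3.12 on the log2 scale. They included CHRNA3, a subunit of neuronal nicotinic acetylcholine receptors, with 14.9, 21.7 and 8.65 TPM at 30 h, against 0, 0 and 4.3 TPM at 6 h (log2 difference 3.12, SE 0.70, adjusted p = 0.00372). SLC18A2, the vesicular monoamine transporter, had 10.9, 8.85 and 15.1 TPM at 30 h, against 0.2, 0 and 3.54 TPM at 6 h (log2 difference 2.81, SE 0.54, adjusted p = 0.000606). SCG3, a granin of secretory granules, had 8.12, 9.95 and 5.29 TPM at 30 h, against 0.24, 0 and 1.11 TPM at 6 h (log2 difference 2.64, SE 0.60, adjusted p = 0.00432). At 6 h all 3 were at 0 in at least 1 library. FAM198B had 8.99, 5.94 and 8.13 TPM at 30 h, against 0.5, 0.16 and 1.21 TPM at 6 h (log2 difference 2.45, SE 0.55, adjusted p = 0.00338).

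Further genes among the 15 rises were called with all 6 libraries and lost the call without some. SYT4, a synaptotagmin of secretory vesicles, had 7.73, 6.04 and 15.4 TPM at 30 h, against 0.19, 0 and 0.7 TPM at 6 h (log2 difference 2.99, SE 0.77, adjusted p = 0.0145). SYT4 reached an adjusted p of up to 0.0951 without B1 of 30 h or A1 or A2 of 6 h. CNTN2, an axonal adhesion molecule, had 9.95, 2.23 and 19.1 TPM at 30 h, against 0, 0.89 and 0 TPM at 6 h (log2 difference 2.85, SE 0.70, adjusted p = 0.00885). CNTN2 reached an adjusted p of up to 0.107 without B1 of 30 h or A1 of 6 h. In both, A2 of 30 h was the lowest library of that exposure, and it still stood above all of 6 h. PRKG2, a cGMP-dependent kinase, had 2.12, 10.9 and 8.62 TPM at 30 h, against 0, 0.23 and 0.22 TPM at 6 h (log2 difference 2.63, SE 0.64, adjusted p = 0.00847). PRKG2 reached an adjusted p of up to 0.0902 without A2 or B1 of 30 h. ELOVL2, which elongates polyunsaturated fatty acids, had 16.4, 29 and 10.1 TPM at 30 h, against 3.15, 1.88 and 1.42 TPM at 6 h (log2 difference 2.55, SE 0.66, adjusted p = 0.0148). ELOVL2 reached an adjusted p of up to 0.129 without A2 of 30 h or A2 or B1 of 6 h. C1orf228 had 2.64, 15.9 and 13.7 TPM at 30 h, against 0, 0 and 1.73 TPM at 6 h (log2 difference 2.79, SE 0.78, adjusted p = 0.0273). C1orf228 reached an adjusted p of up to 0.177 without A2 or B1 of 30 h or A1 or A2 of 6 h.

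The deepest fall was in PDZK1, a scaffold for transporters of the brush border, with 1.4, 0 and 0 TPM at 30 h, against 86.3, 125 and 77.8 TPM at 6 h (log2 difference -6.16, SE 0.62, adjusted p = 2.81e-09). DLX5, a homeobox gene of the neural plate border, had 0 TPM in all 3 libraries of 30 h, against 55.1, 34.3 and 73.3 TPM at 6 h (adjusted p = 2.81e-09). FOXC1, a forkhead factor of mesenchyme and paraxial mesoderm, had 0 TPM in all 3 libraries of 30 h, against 20.9, 25.2 and 15.7 TPM at 6 h (adjusted p = 1.1e-05). The 3 libraries of 30 h thus held almost none of these transcripts, while each library of 6 h held at least 15.7 TPM. Also listed at 0 in every 30 h library was SLC7A9, a subunit of the cystine transporter of kidney and gut, with 30.1, 33.9 and 32.3 TPM at 6 h (adjusted p = 6.25e-05). FAM150B, a ligand of ALK-family receptors, had 0 TPM in all 3 libraries of 30 h, against 27.2, 28.9 and 25.6 TPM at 6 h (adjusted p = 9.65e-05). TCEA3, a transcription elongation factor, had 0 TPM in all 3 libraries of 30 h, against 24.9, 24.9 and 34 TPM at 6 h (adjusted p = 0.00368). No fold is given where a group is listed at 0 throughout.

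Other falls were as deep but left traces at 30 h. APOA1, the main protein of high-density lipoprotein, had 5.01, 0 and 0 TPM at 30 h, against 93.8, 69.9 and 60 TPM at 6 h (log2 difference -5.35, SE 0.97, adjusted p = 0.00025). VIL1, the actin bundler of microvilli, had 2.57, 0 and 0.84 TPM at 30 h, against 46, 40.5 and 29.4 TPM at 6 h (log2 difference -4.38, SE 0.45, adjusted p = 3.5e-09). PRODH2, a hydroxyproline dehydrogenase, had 1.06, 0 and 0 TPM at 30 h, against 38.5, 28.6 and 14.8 TPM at 6 h (log2 difference -4.38, SE 0.77, adjusted p = 0.00017). For each of them the A2 library of 30 h was listed at 0. CCK, the peptide cholecystokinin, had 0, 0 and 4.74 TPM at 30 h, against 42.9, 32.7 and 46 TPM at 6 h (log2 difference -4.52, SE 1.00, adjusted p = 0.0033). CA4, a membrane-bound carbonic anhydrase, had 23.2, 0 and 19.2 TPM at 30 h, against 222, 303 and 209 TPM at 6 h (log2 difference -4.94, SE 1.03, adjusted p = 0.00165). CA4 reached an adjusted p of 0.0734 without A2 of 30 h, where it was listed at 0. APOM, an apolipoprotein that carries sphingosine 1-phosphate, had 0, 0 and 9.88 TPM at 30 h, against 44.4, 97.3 and 38 TPM at 6 h (log2 difference -4.65, SE 1.13, adjusted p = 0.00826). APOM reached an adjusted p of up to 0.0798 without A1 or A2 of 30 h or A2 of 6 h. FOLR1, a folate receptor, had 12.3, 0 and 0 TPM at 30 h, against 38, 56.2 and 56.9 TPM at 6 h (log2 difference -4.41, SE 1.15, adjusted p = 0.0157). FOLR1 reached an adjusted p of up to 0.131 without A2 or B1 of 30 h or A2 or B1 of 6 h.

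**Figure D2:**
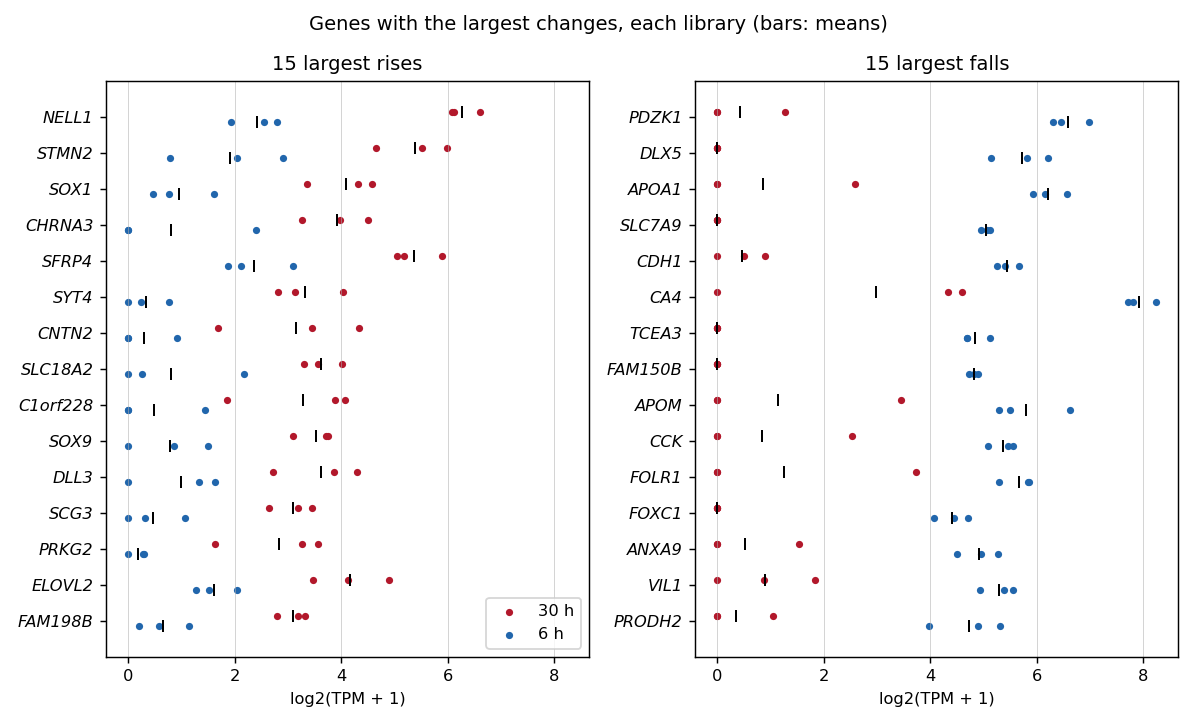
TPM of each library, on a log axis of TPM + 1, for the 15 genes with the largest rises and the 15 with the largest falls among genes outside the HOX clusters that passed the rule for named genes, with 30 h points drawn above 6 h points in each row. The rule required that the exposures not overlap in any of the 30 rows. The A2 library of 30 h is at 0 for all 15 genes that fell.

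HOX genes rose mainly in the HOXB cluster. Of the 12 genes of paralog groups 1 to 4, 5 rose (HOXB2, HOXB3, HOXB4, HOXC4 and HOXD3), with a median log2 difference of 1.56, against 0 over all genes. Of the 15 genes of groups 5 to 9, 11 passed the filter on low values, and 3 of these rose (HOXB5, HOXB6 and HOXB8). Of all genes tested, 1.74% rose. HOXA6, HOXA7, HOXA9, HOXC5, HOXC6, HOXC8, HOXC9, HOXD8 and HOXD9 were listed at 0 in all 6 libraries. Summed over groups 1 to 4 the level was 881, 968 and 865 TPM at 30 h, against 443, 413 and 428 TPM at 6 h. Over groups 5 to 9 it was 105, 125 and 148 TPM at 30 h, against 3.63, 0 and 6.89 TPM at 6 h, so that the exposures did not overlap in either sum.

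In the HOXB cluster, HOXB4 had 155, 175 and 128 TPM at 30 h, against 6.33, 7.97 and 8.22 TPM at 6 h (log2 difference 4.17, SE 0.40, adjusted p = 1.38e-09). HOXB5 had 70.6, 103 and 109 TPM at 30 h, against 2.65, 0 and 5.59 TPM at 6 h (log2 difference 5.02, SE 0.84, adjusted p = 7.83e-05). HOXB3 had 95.3, 105 and 83 TPM at 30 h, against 39.7, 18.1 and 22.8 TPM at 6 h (log2 difference 1.85, SE 0.31, adjusted p = 9.65e-05). All 3 genes were separated between the exposures in every library, and HOXB4 and HOXB5 at 6 h were under 10 TPM throughout. HOXB2 had 80.4, 36 and 54.9 TPM at 30 h, against 15.6, 11.1 and 13.6 TPM at 6 h (log2 difference 1.94, SE 0.38, adjusted p = 0.000783). HOXB6 had 12.2, 9.16 and 20.0 TPM at 30 h, against 0, 0 and 1.3 TPM at 6 h (log2 difference 3.42, SE 0.80, adjusted p = 0.00567). HOXB8, the gene of the highest paralog number called, had 13.1, 11.6 and 6.97 TPM at 30 h, against 0 TPM in all 3 libraries of 6 h (adjusted p = 6.34e-09). HOXC4, the first gene of its cluster, had 3.2, 19.6 and 12.2 TPM at 30 h, against 0 TPM in all 3 libraries of 6 h (adjusted p = 1.31e-05). These 7 calls passed without any 1 of the 6 libraries. HOXD3 had 127, 170.4 and 132 TPM at 30 h, against 71.1, 70.4 and 63.1 TPM at 6 h (log2 difference 1.05, SE 0.31, adjusted p = 0.0411), with no overlap. Its call was lost under each of the 6 omissions, up to an adjusted p of 0.21 without A2 of 30 h.

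HOXB1, which is used in the anterior hindbrain, had 46.8, 57.3 and 106 TPM at 30 h, against 25.7, 3.85 and 18.9 TPM at 6 h, with no overlap, and did not pass (log2 difference 2.29, adjusted p = 0.0746). HOXA4 was likewise separated, with 13.9, 23.3 and 23.4 TPM at 30 h, against 1.86, 4.03 and 3.37 TPM at 6 h (adjusted p = 0.123). The exposures were less far apart for HOXD4, with 195, 201 and 190 TPM at 30 h, against 148, 115 and 122 TPM at 6 h (log2 difference 0.61, adjusted p = 0.428), with no overlap. They overlapped for HOXA2, which had 24.4, 39.9 and 9.1 TPM at 30 h, against 5.43, 9.14 and 10.2 TPM at 6 h. HOXA3 had 45.5, 67.8 and 76.9 TPM at 30 h, against 33.7, 53.8 and 55 TPM at 6 h, and HOXD1 had 37.2, 20.4 and 26.3 TPM at 30 h, against 7.33, 26.6 and 9.19 TPM at 6 h, likewise with overlap and no call. At the posterior end HOXA5 had 5.36, 0 and 12.6 TPM at 30 h, against 0.98, 0 and 0 TPM at 6 h (adjusted p = 0.261). HOXB9 had 3.27, 0.71 and 0 TPM at 30 h, against 0 TPM in all 3 libraries of 6 h (adjusted p = 0.273). On the TPM scale, which is per length, HOXD4, HOXB4 and HOXD3 had the highest levels at 30 h, and HOXD4 was above both of these at 6 h. MEIS2, a TALE cofactor that binds DNA with HOX proteins, had 296, 320.5 and 355 TPM at 30 h, against 340.3, 325 and 366 TPM at 6 h, which overlapped (adjusted p = 0.926).

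**Figure D3:**
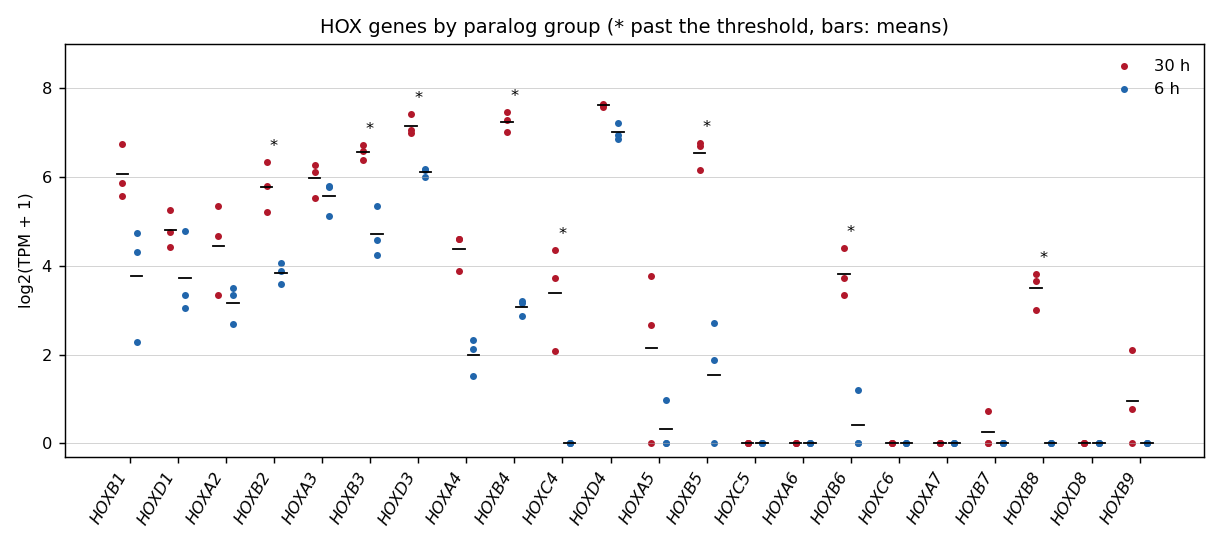
TPM of HOX genes in each library, by paralog group on the horizontal axis and on a log axis of TPM + 1, with 30 h left of 6 h for each gene and an asterisk where limma's adjusted p was under 0.05. HOXB6, HOXB8 and HOXC4 are well above 0 at 30 h and at or near 0 at 6 h, and HOXB4 and HOXB5 are under 10 TPM at 6 h.

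Of the enzymes that make and clear retinoic acid, 1 rose and 1 fell among 8 tested, against 1.74% and 2.14% of all genes tested. CYP26A1, whose promoter repeat is printed above, had 516, 476 and 376 TPM at 30 h, against 1819, 2248 and 1745 TPM at 6 h (log2 difference -2.09, SE 0.17, adjusted p = 2.42e-11). Even the highest library of 30 h was far below the lowest of 6 h. ALDH1A1, which makes retinoic acid from retinaldehyde, had 906, 865 and 1088 TPM at 30 h, against 356, 400.3 and 372 TPM at 6 h (log2 difference 1.33, SE 0.34, adjusted p = 0.0117), also with no overlap. ALDH1A1 reached an adjusted p of up to 0.064 without B1 of 30 h or A1 of 6 h. DHRS3, which returns retinaldehyde to retinol, had 108, 128 and 121 TPM at 30 h, against 219, 227 and 165 TPM at 6 h, below in each library of 30 h, and did not pass (adjusted p = 0.602). ALDH1A2, ALDH1A3, CYP26B1 and CYP26C1 were under 6 TPM in all 6 libraries and none was called. None of the 11 retinoid receptors and binding proteins passed in limma, and 3 had an unadjusted p under 0.05 (14.2% of all genes tested did). CRABP2, which carries retinoic acid to its receptor, had 1913, 1589 and 1439 TPM at 30 h, against 2197, 2089 and 2234 TPM at 6 h (adjusted p = 0.28).

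Epithelial genes fell together. Of the 18 genes of epithelial adhesion, splicing and keratin, all of which were tested, 14 fell, none rose and 4 did not pass, with a median log2 difference of -3.05, against 0 over all genes. Of all genes tested, 2.14% fell. All 18 differences were negative, and 17 genes lay wholly lower at 30 h, against 12.0% of all genes. Of the 14 calls, 9 passed under every omission of 1 of the 6 libraries, and 10 genes were called without A2 of 30 h. The list summed to 518, 274 and 459 TPM at 30 h, against 1663, 1736 and 1702 TPM at 6 h. In bulk RNA, fewer epithelial cells and less of each transcript per cell cannot be told apart.

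CDH1, E-cadherin, had 0.42, 0 and 0.86 TPM at 30 h, against 37.2, 41.5 and 49.6 TPM at 6 h (log2 difference -4.97, SE 0.75, adjusted p = 1.25e-05). EPCAM, another surface adhesion molecule of epithelia, had 14.5, 17.9 and 33 TPM at 30 h, against 166, 205 and 165 TPM at 6 h (log2 difference -3.06, SE 0.31, adjusted p = 4.2e-09). Each 30 h library was below every 6 h library in both genes, and EPCAM remained above 14 TPM where CDH1 was under 1 TPM. The tight junction gene CLDN7 had 0 TPM in all 3 libraries of 30 h, against 10.1, 14.2 and 11.1 TPM at 6 h (adjusted p = 4.56e-07). Both epithelial splicing regulators were listed at 0 at 30 h: ESRP1 had 14.0, 12.0 and 8.66 TPM at 6 h (adjusted p = 3.46e-06) and ESRP2 4.17, 4.2 and 5.02 TPM at 6 h (adjusted p = 0.000617). GRHL2, a transcription factor that maintains epithelia, had 0 TPM in all 3 libraries of 30 h, against 3.51, 5.42 and 3.03 TPM at 6 h (adjusted p = 0.000195). ANXA9, an annexin, had 0, 0 and 1.9 TPM at 30 h, against 21.6, 37.7 and 29.9 TPM at 6 h (log2 difference -4.40, SE 0.66, adjusted p = 1.33e-05). The keratins kept higher levels: KRT8 had 340.1, 182 and 315 TPM at 30 h, against 816, 739 and 808 TPM at 6 h (log2 difference -1.54, SE 0.27, adjusted p = 0.000129). KRT19 had 46.5, 19.6 and 43.3 TPM at 30 h, against 184, 240.0 and 235 TPM at 6 h (log2 difference -2.64, SE 0.32, adjusted p = 1.89e-07). KRT18, the partner of KRT8 in simple epithelia, had 43.8, 31.1 and 55.3 TPM at 30 h, against 132, 132 and 112 TPM at 6 h (log2 difference -1.54, SE 0.37, adjusted p = 0.00845). KRT18 reached 0.0898 without A2 of 30 h. None of the keratins overlapped between the exposures.

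Among the members with a printed promoter, AP1M2 had 1.52, 0 and 0 TPM at 30 h, against 29.5, 9.72 and 7.89 TPM at 6 h (log2 difference -3.39, SE 0.82, adjusted p = 0.0075). AP1M2 reached an adjusted p of up to 0.0869 without A2 of 30 h or A1 of 6 h. RAB25 had 0.83, 0 and 0 TPM at 30 h, against 16.5, 25.9 and 12.8 TPM at 6 h (log2 difference -3.93, SE 0.94, adjusted p = 0.00702). RAB25 reached an adjusted p of 0.0513 without A2 of 6 h. In both, 2 of the 3 libraries of 30 h were listed at 0. CLDN6, a claudin of embryonic epithelia, had 49.4, 22.5 and 10.2 TPM at 30 h, against 173, 222 and 192 TPM at 6 h (log2 difference -3.05, SE 0.78, adjusted p = 0.0132). CLDN6 reached an adjusted p of up to 0.115 without A2 or B1 of 30 h or A2 of 6 h. SMAGP, a small membrane glycoprotein of epithelia, had 1.65, 0 and 0 TPM at 30 h, against 7.55, 25.8 and 21.6 TPM at 6 h (log2 difference -3.64, SE 0.93, adjusted p = 0.0128). SMAGP reached an adjusted p of up to 0.0851 without A2 or B1 of 30 h or A2 or B1 of 6 h. The 4 that did not pass were CDH3, CLDN3, CLDN4 and ST14 (adjusted p = 0.414, 0.102, 0.147 and 0.181). Of the 6 repressors of epithelial genes, ZEB1 rose and none fell, against 1.74% and 2.14% of all genes tested. ZEB1 had 18.2, 24.6 and 25.5 TPM at 30 h, against 5.68, 6.2 and 5.97 TPM at 6 h (log2 difference 1.76, SE 0.29, adjusted p = 4.25e-05). ZEB2 had 36.5, 47.2 and 49.96 TPM at 30 h, against 25.6, 28.4 and 29.9 TPM at 6 h, higher in each library of 30 h, and did not pass (adjusted p = 0.206). SNAI1 and SNAI2 overlapped between the exposures.

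Apolipoproteins and other secreted proteins that are made in liver and yolk sac also included genes that fell: 5 of 12 tested, with none that rose. Of all genes tested, 2.14% fell and 1.74% rose. The list's median log2 difference was -1.66, against 0 over all genes. APOE, the apolipoprotein of the highest level here, had 101, 81.8 and 89.7 TPM at 30 h, against 785, 859 and 716 TPM at 6 h (log2 difference -3.10, SE 0.79, adjusted p = 0.013). APOE reached an adjusted p of up to 0.0599 without A2 of 30 h or A2 of 6 h. APOB, the core protein of low-density lipoprotein, had 1.62, 1.34 and 2.5 TPM at 30 h, against 11.3, 8.45 and 11.3 TPM at 6 h (log2 difference -2.02, SE 0.46, adjusted p = 0.00432). For both, the exposures were separated by a wide gap. APOA2 had 0 TPM in all 3 libraries of 30 h, against 19.5, 18.7 and 0 TPM at 6 h, so that 1 library of 6 h matched those of 30 h (adjusted p = 0.00432). APOA2 reached an adjusted p of up to 0.0995 without A1 or A2 of 6 h. SERPINA1, a protease inhibitor, had 0 TPM in all 3 libraries of 30 h, against 9.45, 1.21 and 0.91 TPM at 6 h (adjusted p = 0.0393). SERPINA1 reached an adjusted p of up to 0.455 without A1, A2 or B1 of 30 h or A1 of 6 h. AFP, ALB and the rest of the list were not called. None of the 9 endoderm factors tested rose. HNF4A, a nuclear receptor of endoderm, had 15.3, 2.38 and 12 TPM at 30 h, against 36.7, 51.4 and 78.6 TPM at 6 h, with no overlap, and did not pass (adjusted p = 0.0546). CXCR4, a chemokine receptor of endoderm and other lineages, had 35.0, 20.6 and 24.2 TPM at 30 h, against 0.97, 5.55 and 3.92 TPM at 6 h, with no overlap, at an adjusted p just over the threshold of 0.05 (log2 difference 2.76). SOX17 and HHEX, which define early endoderm, were listed at 0 in all 6 libraries.

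Neural genes rose in part. Of 19 neural progenitor genes tested, 5 rose and none fell, against 1.74% and 2.14% of all genes tested. The list's median log2 difference was 0.56, against 0 over all genes. For 10 of the 19 the 30 h libraries lay wholly higher and for 4 wholly lower, against 14.0% and 12.0% of all genes. NES, an intermediate filament of neural progenitors, had 402, 327 and 414 TPM at 30 h, against 199, 167 and 189 TPM at 6 h (log2 difference 1.04, SE 0.16, adjusted p = 1.42e-05). PTPRZ1, a receptor phosphatase of radial glia, had 71.5, 56.2 and 68.5 TPM at 30 h, against 24.2, 21.1 and 22.2 TPM at 6 h (log2 difference 1.49, SE 0.25, adjusted p = 7.34e-05). POU3F2, a POU factor of neural progenitors, had 53.2, 47.9 and 45.5 TPM at 30 h, against 11.3, 5.82 and 9.54 TPM at 6 h (log2 difference 2.37, SE 0.29, adjusted p = 1.35e-07). All 3 genes were separated between the exposures, and with SOX1 their calls passed under each omission. SOX9, which marks the step to glia-forming progenitors, had 12.1, 12.6 and 7.58 TPM at 30 h, against 0.82, 0 and 1.83 TPM at 6 h (log2 difference 2.74, SE 0.63, adjusted p = 0.00471). SOX9 reached an adjusted p of 0.063 without A2 of 6 h. SOX2, whose values are given above, had a log2 difference of 0.97 (adjusted p = 0.483). CDH2, N-cadherin, had 1452, 1685 and 1584 TPM at 30 h, against 2221, 2244 and 2164 TPM at 6 h, lower in each library of 30 h, and did not pass (log2 difference -0.49, adjusted p = 0.158).

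Of 22 proneural and neuronal genes, 3 rose (1.74% of all genes tested did) and none fell, with a median log2 difference of 1.71, against 0 over all genes. The libraries of 30 h lay wholly above those of 6 h for 11 genes and wholly below for 2, against 14.0% and 12.0% of all genes. Besides STMN2 the genes that rose included ONECUT2, a transcription factor of early neurons, with 11.1, 4.58 and 11.5 TPM at 30 h, against 1.82, 0.91 and 0.94 TPM at 6 h (log2 difference 2.11, SE 0.40, adjusted p = 0.00057). ELAVL3, a neuronal RNA-binding protein, had 7.93, 4.48 and 2.94 TPM at 30 h, against 0.17, 0.49 and 0.15 TPM at 6 h (log2 difference 2.20, SE 0.47, adjusted p = 0.00211). Neither overlapped. TAGLN3, a neuronal actin-binding protein, had 23.3, 12.9 and 47.8 TPM at 30 h, against 5.4, 1.3 and 3.67 TPM at 6 h (adjusted p = 0.0936). TUBB3, the neuronal beta-tubulin, had a difference of the opposite sign (log2 difference -0.79, adjusted p = 0.268), with 124, 103 and 166 TPM at 30 h, against 221, 246 and 205 TPM at 6 h. ISL1, a factor of motor and sensory neurons, was listed at 0 in all 6 libraries. The list's count changed with the setting: 10 rose and 1 fell without the 3 libraries of other exposures that held under 10000 genes, and none was called without the libraries labelled A1.

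Dorsal neural tube genes moved in both directions: 3 of 12 tested rose and 2 fell, against 1.74% and 2.14% of all genes tested. OLIG3, a bHLH factor of dorsal progenitors, had 7.25, 5.22 and 6.83 TPM at 30 h, against 115, 79 and 129 TPM at 6 h (log2 difference -3.85, SE 0.67, adjusted p = 0.000144). PAX3, a paired-box factor of the dorsal neural tube, had 229, 309.9 and 255 TPM at 30 h, against 117, 84.4 and 136 TPM at 6 h (log2 difference 1.24, SE 0.20, adjusted p = 4.23e-05). No library of 30 h overlapped those of 6 h for either, OLIG3 being lower and PAX3 higher. PAX7, the close relative of PAX3, had 4.94, 3.76 and 1.89 TPM at 30 h, against 13.6, 20.5 and 15.7 TPM at 6 h (log2 difference -2.0, SE 0.55, adjusted p = 0.0252). PAX7 reached an adjusted p of up to 0.147 without A2 or B1 of 30 h or A1, A2 or B1 of 6 h. BMP7, a dorsal BMP ligand, had 68.5, 39.8 and 57.5 TPM at 30 h, against 27.6, 21 and 17.8 TPM at 6 h (log2 difference 1.27, SE 0.31, adjusted p = 0.00837). BMP7 reached an adjusted p of up to 0.0654 without A1 of 30 h or B1 of 6 h. NDNF, a secreted neurotrophic factor, had 29.8, 44.8 and 42.4 TPM at 30 h, against 6.98, 4.83 and 8.82 TPM at 6 h (log2 difference 2.36, SE 0.62, adjusted p = 0.0171). NDNF reached an adjusted p of up to 0.102 without A2 or B1 of 30 h or A1 or A2 of 6 h. WNT1 and MSX1, of the roof plate, were higher in each library of 30 h and did not pass (adjusted p = 0.427 and 0.63). On the ventral side SHH, NKX2-2, NKX6-1, NKX6-2 and OLIG2 were listed at 0 in all 6 libraries. DBX2, of the intermediate neural tube, had 57.1, 58.9 and 71 TPM at 30 h, against 10.3, 20.9 and 18.1 TPM at 6 h (adjusted p = 0.0955).

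Among regulators of other brain regions, IRX2, a homeobox gene of the hindbrain and spinal cord, had 133, 158 and 193 TPM at 30 h, against 56.9, 74.9 and 88.3 TPM at 6 h (log2 difference 1.13, SE 0.26, adjusted p = 0.00545). IRX2 reached an adjusted p of up to 0.0663 without B1 of 30 h or A1 of 6 h. OTX2, which defines forebrain and midbrain, had 0 TPM in all 3 libraries of 30 h, against 3.1, 2.61 and 8.42 TPM at 6 h (adjusted p = 0.000132). PAX2, of the midbrain-hindbrain border and spinal interneurons, had 1.75, 2.36 and 0.28 TPM at 30 h, against 0 TPM in all 3 libraries of 6 h (adjusted p = 0.0434). PAX2 reached an adjusted p of up to 0.313 without A1 or A2 of 30 h or A1, A2 or B1 of 6 h. Both were low at their higher exposure, under 9 TPM. Of 10 genes of the plate border and surface ectoderm, 3 fell (of all genes tested, 2.14% fell and 1.74% rose). Beside DLX5, TFAP2A, an AP-2 factor of surface ectoderm and neural crest, had 1.62, 6.05 and 1.83 TPM at 30 h, against 31.8, 21.2 and 24.1 TPM at 6 h (log2 difference -2.82, SE 0.51, adjusted p = 0.000255), with no overlap. GATA3 had 1.15, 0 and 0 TPM at 30 h, against 6.53, 5.02 and 8.25 TPM at 6 h (log2 difference -2.54, SE 0.70, adjusted p = 0.0252). GATA3 reached an adjusted p of up to 0.125 without A2 or B1 of 30 h or A1, A2 or B1 of 6 h. KRT5 and KRT14, keratins of stratified epidermis, were listed at 0 throughout. SOX10, which defines migrating neural crest, was at 0 in all 6 libraries too. Of the 9 crest genes tested NGFR rose and ERBB3 and MITF fell, against 1.74% and 2.14% of all genes tested. MITF had 5.08, 5.32 and 1.61 TPM at 30 h, against 19.3, 20.8 and 20.4 TPM at 6 h (log2 difference -2.18, SE 0.49, adjusted p = 0.00402). MITF reached an adjusted p of 0.0618 without B1 of 30 h. NGFR had 19.6, 12.3 and 15.8 TPM at 30 h, against 2.81, 0.45 and 5.5 TPM at 6 h (log2 difference 2.33, SE 0.65, adjusted p = 0.0263). NGFR reached an adjusted p of up to 0.266 without A1, A2 or B1 of 30 h or A1 or A2 of 6 h. ERBB3 had 5.12, 0 and 0.6 TPM at 30 h, against 21.9, 18 and 5.76 TPM at 6 h (log2 difference -2.74, SE 0.81, adjusted p = 0.0425). ERBB3 reached an adjusted p of up to 0.278 without A2 or B1 of 30 h or A1 or A2 of 6 h.

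Of 16 feedback and beta-catenin target genes of the WNT pathway, which CHIR99021 activates, limma called none, and 3 had an unadjusted p under 0.05 (14.2% of all genes tested did). AXIN2, the feedback inhibitor commonly read as a WNT target, had 57.6, 48.1 and 69.6 TPM at 30 h, against 66.3, 56.8 and 76.2 TPM at 6 h (log2 difference -0.19, adjusted p = 0.894), and the exposures overlapped. CCND1, cyclin D1, had 141, 151 and 126 TPM at 30 h, against 218, 186 and 261 TPM at 6 h, lower in each 30 h library (adjusted p = 0.0883). WNT5A, a ligand of the tail bud, had 57.6, 32.3 and 36.9 TPM at 30 h, against 13.6, 10.7 and 11.4 TPM at 6 h (log2 difference 1.71, SE 0.32, adjusted p = 0.000335). It was the single call among 10 tail bud and axial progenitor genes. Of all genes tested, 3.88% were called in either direction. TBX6 and MSGN1, which define presomitic mesoderm, were listed at 0 in all 6 libraries. Of 8 secreted WNT antagonists tested, 1 rose and none fell, against 1.74% and 2.14% of all genes tested. The other 7 had a negative difference, with a list median of -0.51. Of these, 3 lay wholly lower at 30 h, against 12.0% of all genes, and none of the 3 was called. The rise was in SFRP4, which had 35.3, 58.4 and 32.1 TPM at 30 h, against 7.55, 3.37 and 2.68 TPM at 6 h (log2 difference 3.01, SE 0.83, adjusted p = 0.0247). SFRP4 reached an adjusted p of up to 0.131 without A1, A2 or B1 of 30 h or A2 or B1 of 6 h.

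In the BMP list 2 of 16 genes rose and 1 fell, against 1.74% and 2.14% of all genes tested. ID3, an inhibitor of bHLH factors and a BMP target, had 541, 565 and 538 TPM at 30 h, against 218, 228 and 197 TPM at 6 h (log2 difference 1.35, SE 0.23, adjusted p = 7.6e-05). ID1, its relative, was lower in each library of 30 h, with 53.3, 56.6 and 56.5 TPM at 30 h, against 166, 151 and 140.0 TPM at 6 h, and did not pass (log2 difference -1.44, adjusted p = 0.515). Of this pair, the difference of ID3 passed the test and that of ID1 did not. BMP4 had 18.9, 8.86 and 28 TPM at 30 h, against 53.5, 35.8 and 58.4 TPM at 6 h (log2 difference -1.46, SE 0.44, adjusted p = 0.0435). BMP4 reached an adjusted p of up to 0.371 without A1 or A2 of 30 h or A1, A2 or B1 of 6 h. Among Hedgehog genes, GLI1, the transcriptional readout of the pathway, had 0, 0 and 1.69 TPM at 30 h, against 4.71, 8.37 and 6.17 TPM at 6 h (log2 difference -2.39, SE 0.56, adjusted p = 0.00569). GLI1 reached an adjusted p of 0.0548 without A2 of 30 h. SCUBE3, which helps release the ligand, had 43.8, 39.4 and 47 TPM at 30 h, against 21.1, 9.9 and 33.8 TPM at 6 h (log2 difference 1.12, SE 0.29, adjusted p = 0.0125). SCUBE3 reached an adjusted p of up to 0.298 without B1 of 30 h or A2 of 6 h. BOC, a co-receptor, had 34.3, 53.3 and 29.2 TPM at 30 h, against 8.59, 8.61 and 6.08 TPM at 6 h (log2 difference 2.16, SE 0.63, adjusted p = 0.0364). The call of BOC was lost under each of the 6 omissions (up to 0.185). FGFR3, an FGF receptor of neural progenitors, had 103, 133 and 97.8 TPM at 30 h, against 181, 184 and 189 TPM at 6 h (log2 difference -0.74, SE 0.20, adjusted p = 0.0231). It was the 1 call of 15 genes of FGF receptors and ERK feedback, where 3.88% of all genes tested were called in either direction. FGFR3 reached an adjusted p of up to 0.12 without A1 or B1 of 30 h or A1, A2 or B1 of 6 h. DLL3, a Notch ligand that acts within the cell, was the single call of 17 Notch genes, beside the same 3.88% of all genes tested. It had 18.6, 5.61 and 13.5 TPM at 30 h, against 0, 1.51 and 2.12 TPM at 6 h (log2 difference 2.64, SE 0.74, adjusted p = 0.0288). DLL3 reached an adjusted p of up to 0.21 without A1 or B1 of 30 h or A1 or A2 of 6 h.

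Of 18 genes of axon guidance and reelin signalling, 2 rose and 1 fell, against 1.74% and 2.14% of all genes tested. These calls passed under each omission. RELN, the extracellular glycoprotein that positions migrating neurons, had 226, 179 and 298 TPM at 30 h, against 53, 42.2 and 53.4 TPM at 6 h (log2 difference 2.20, SE 0.36, adjusted p = 4.25e-05). SEMA3C, a secreted semaphorin, had 41.1, 45.5 and 41.4 TPM at 30 h, against 96.2, 95.3 and 110.2 TPM at 6 h (log2 difference -1.22, SE 0.27, adjusted p = 0.00402). NELL1, described above, was the other rise. The exposures did not overlap for these genes.

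Genes of mitosis were higher after 30 h, while those of DNA replication were not called. Of 16 mitosis genes, 9 rose (1.74% of all genes tested did) and none fell, with a median log2 difference of 0.87, against 0 over all genes. The libraries of 30 h lay wholly above those of 6 h for 15 of the 16, against 14.0% of all genes. They summed to 1603, 1869.6 and 1622 TPM at 30 h, against 910.2, 778 and 1011 TPM at 6 h. TOP2A, topoisomerase II of dividing cells, had 271, 342 and 324 TPM at 30 h, against 133, 108 and 144 TPM at 6 h (log2 difference 1.28, SE 0.19, adjusted p = 1e-05) and was the only call of the list that passed without any 1 library. MKI67, the proliferation antigen, had 47.3, 35.3 and 53.9 TPM at 30 h, against 19.1, 12.9 and 26.2 TPM at 6 h (log2 difference 1.22, SE 0.30, adjusted p = 0.00872). MKI67 reached an adjusted p of up to 0.122 without B1 of 30 h or A2 of 6 h. The count was 1 without A2 of 6 h, in which the sum was lowest, 5 without A2 of 30 h and 7 with median-ratio scaling. Of 16 DNA replication genes limma called none in either direction (2 at an unadjusted p under 0.05, against 14.2% of all genes tested), at a median of 0.01. Their sums were 2266, 2480.4 and 2246 TPM at 30 h, against 2307, 2131 and 2425 TPM at 6 h, which overlapped.

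Basement membrane collagens fell within a list of 17 collagen and fibroblast genes that had 3 falls and no rise. Of all genes tested, 2.14% fell and 1.74% rose. COL4A1, the main collagen of basement membranes, had 261, 167 and 265 TPM at 30 h, against 689.7, 554 and 683 TPM at 6 h (log2 difference -1.49, SE 0.23, adjusted p = 2.57e-05). COL4A2, its partner chain, had 269.6, 243 and 265 TPM at 30 h, against 384, 345 and 409.9 TPM at 6 h (log2 difference -0.55, SE 0.16, adjusted p = 0.0338). COL4A2 reached an adjusted p of up to 0.154 without A1, A2 or B1 of 30 h or A1 or B1 of 6 h. COL18A1 had 482, 449 and 474 TPM at 30 h, against 794, 694 and 741 TPM at 6 h (log2 difference -0.66, SE 0.17, adjusted p = 0.0118). COL18A1 reached an adjusted p of up to 0.0706 without A2 of 30 h or A1 of 6 h. All 3 were lower in every 30 h library. COL1A1, a fibrillar collagen, had 113, 89.1 and 76.9 TPM at 30 h, against 35.7, 27.1 and 47.7 TPM at 6 h, higher at 30 h without passing (adjusted p = 0.327). Of 11 pluripotency genes, LIN28A, an RNA-binding protein that blocks let-7 processing, had 897, 788 and 971 TPM at 30 h, against 1472, 1574 and 1588 TPM at 6 h (log2 difference -0.81, SE 0.19, adjusted p = 0.00691). LIN28A reached 0.0637 without A2 of 30 h. ZFP42 fell with a call that none of the 6 omissions kept (adjusted p = 0.0318 with all libraries, up to 0.113). POU5F1 overlapped, with 16.5, 34.6 and 10.8 TPM at 30 h, against 10.1, 11.7 and 9.09 TPM at 6 h.

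CPE, an enzyme that trims peptide hormones, had 21.1, 18.9 and 22.3 TPM at 30 h, against 93.2, 101 and 92.5 TPM at 6 h (log2 difference -2.15, SE 0.31, adjusted p = 4.57e-06). It was the 1 call of 16 genes of peptide hormones and their processing. Of all genes tested, 3.88% were called in either direction. POMC, a precursor of pituitary peptides, was lower in each library of 30 h, with 220.2, 170.4 and 127 TPM at 30 h, against 1097, 1080.0 and 846 TPM at 6 h, and did not pass (adjusted p = 0.055). PHGDH, the first enzyme of serine synthesis, had 471, 517 and 489.5 TPM at 30 h, against 904, 965 and 797 TPM at 6 h (log2 difference -0.85, SE 0.22, adjusted p = 0.0177). PHGDH reached an adjusted p of up to 0.0995 without A1, A2 or B1 of 30 h or A1 or A2 of 6 h. In cholesterol synthesis IDI1 and CYP51A1 rose, 2 of 13 genes, against 1.74% of all genes tested. Their log2 differences were 0.87 and 0.80 (limma adjusted p = 0.0148 and 0.0137). Both lost the call without A2 of 30 h or A2 of 6 h (up to 0.272 and 0.164). None was called among genes of the circadian clock (13 tested), immediate early response (12), oxidative stress defence (12), ribosome biogenesis and the MYC network (19), smooth muscle (10) or endothelium and blood (7). At an unadjusted p under 0.05 these lists had 1, 0, 1, 0, 0 and 2 genes in the same order, against 14.2% of all genes tested.

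The hypoxia and glycolysis genes served to choose the hours and are described without being read as a result. Of the 18, 2 were higher and 1 lower, against 1.74% and 2.14% of all genes tested. Their median log2 difference was -0.25. NDRG1, a stress-responsive gene, had 6.58, 14.8 and 16 TPM at 30 h, against 82.4, 64.7 and 66.7 TPM at 6 h. SLC2A1, the basal glucose transporter, had 155, 235 and 172 TPM at 30 h, against 88.1, 94.6 and 96.8 TPM at 6 h. The sums were 6676, 6715 and 6528 TPM at 30 h, against 8037, 8287 and 8175 TPM at 6 h, so every library of 30 h was lower in the sum.

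**Figure D4:**
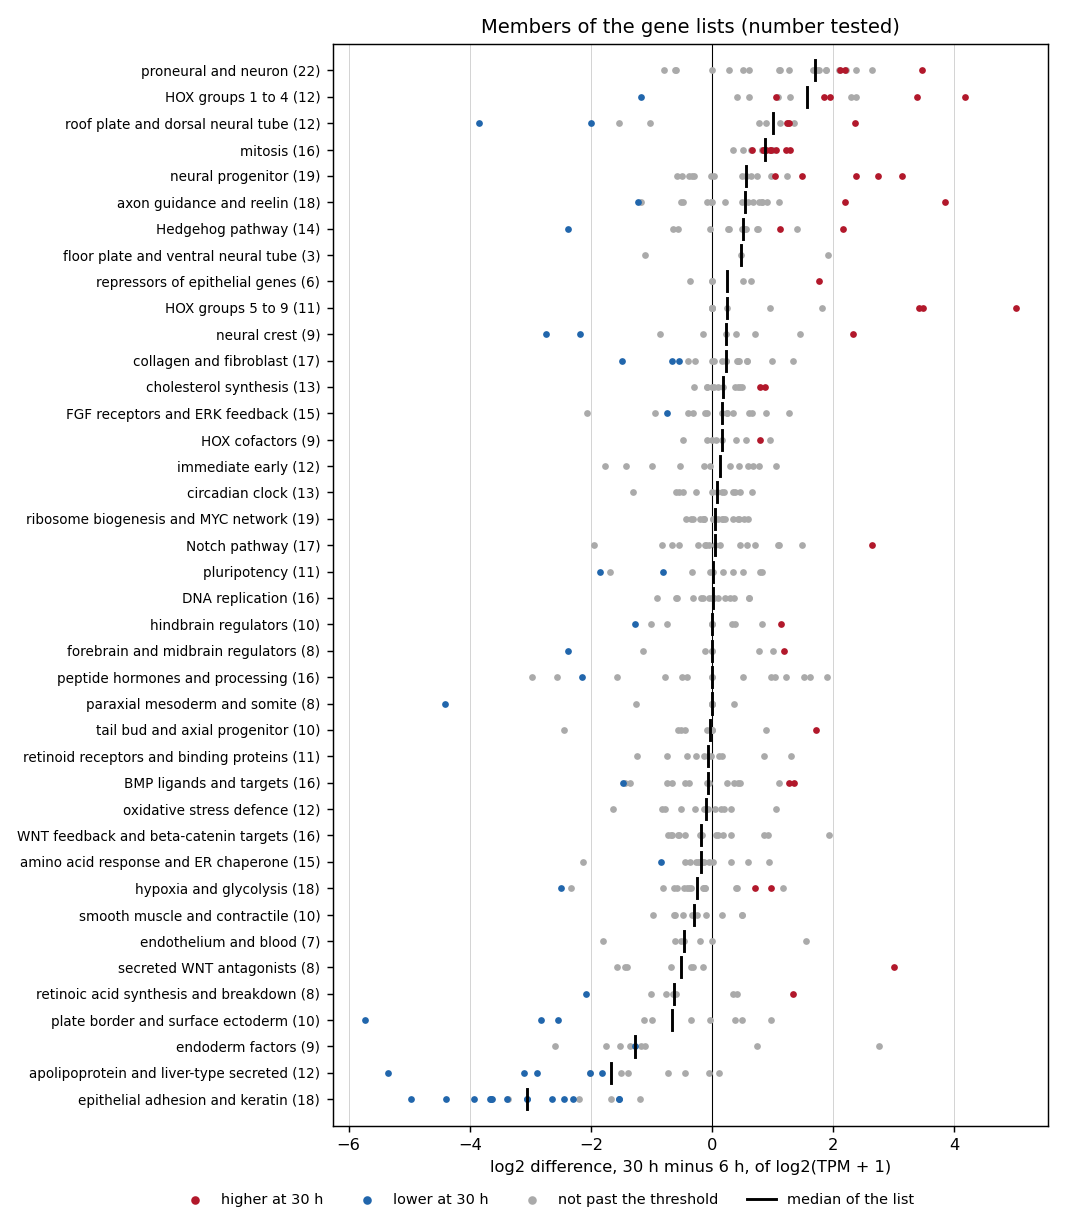
Log2 differences, 30 h minus 6 h on the log2(TPM + 1) scale, of the tested members of 40 gene lists, 1 row a list, with points coloured where limma's adjusted p was under 0.05 and a bar at each list's median. The epithelial list lies furthest to the left with a median of -3.05, the mitosis list is wholly to the right of 0, and the DNA replication list centres on it.

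Levels at the exposures in between are compared next. Every library was taken 4 days after its exposure ended, so hours here are lengths of exposure and not times at which a level changed. For each gene, the shortest exposure at which mean log2(TPM + 1) crossed the midpoint of its 6 h and 30 h values was interpolated linearly. It is a description with no test. Of the 266 genes that rose, 85 (32.0%) first crossed between 10 and 12 h and 53 (19.9%) between 6 and 8 h. Of the 328 that fell, 74 (22.6%) crossed between 6 and 8 h, 66 (20.1%) between 10 and 12 h and 49 (14.9%) between 18 and 20 h. Among the 5483 genes not called with a difference of at least 0.5, 42.9% crossed between 6 and 8 h, 11.9% between 10 and 12 h and 2.92% between 18 and 20 h. A first crossing need not hold at longer exposures. Of the 266, 149 stayed past the midpoint at every longer exposure up to 30 h, and of the 328, 189 did.

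Read separately in the libraries of each label, HOXB4 crossed at 11.1 ± 0.074 h, PTPRZ1 at 11.2 ± 0.35 h and ESRP1 at 10.8 ± 0.32 h (mean ± SD of 3 labels). The labels did not pair the libraries of 30 h and 6 h, so each course joins libraries by label name alone. The SD is a spread among 3 such courses and is not known to be one among replicate cultures. STMN2 crossed at 10.9 ± 0.32 h, POU3F2 at 11.4 ± 0.29 h and the spindle gene CENPF at 11 ± 0.029 h. These genes were picked after their values were seen, for a small spread between labels. In others with a mean in the same window the labels differed far more, as in HOXB2 (11.4 ± 4.07 h), SOX9 (11.5 ± 4.47 h), ONECUT2 (11.9 ± 4.89 h) and CDH1 (12.0 ± 4.77 h). A crossing at a longer exposure, likewise picked, was seen in DLX5 (19.1 ± 0.44 h), FOXC1 (19.0 ± 0.40 h) and TFAP2A (19.6 ± 1.28 h). OLIG3 crossed at 22.7 ± 0.39 h and KRT19 at 25.2 ± 0.86 h. An interpolated exposure is limited by the 2 h between exposures up to 24 h and the 6 h after it.

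**Figure D5:**
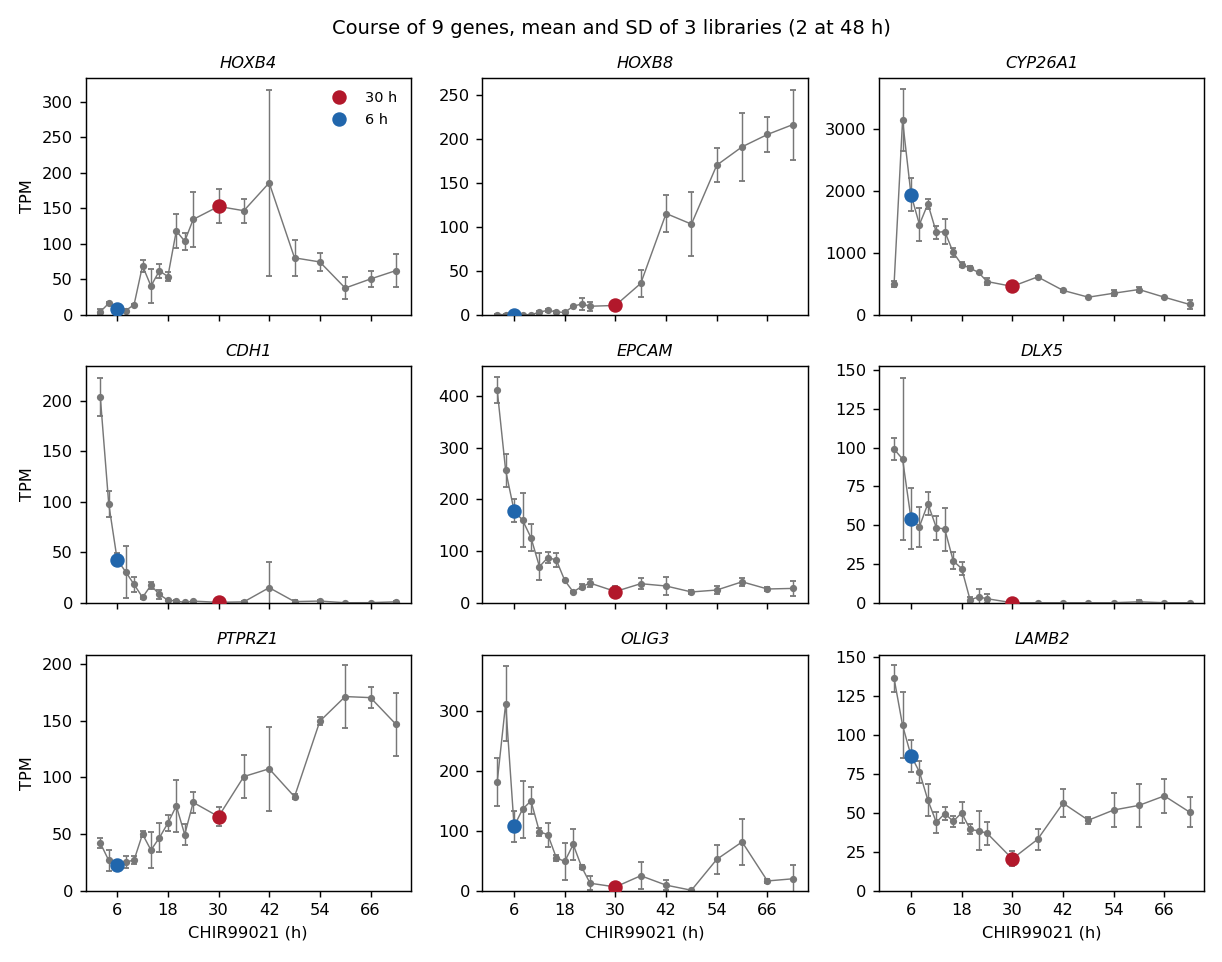
TPM at each of the 20 exposures for HOXB4, HOXB8, CYP26A1, CDH1, EPCAM, DLX5, PTPRZ1, OLIG3 and LAMB2, as mean ± SD of 3 libraries (2 at 48 h), with 6 h and 30 h marked. HOXB4 is higher at 12 h than at 10 h and lower again at 54 h, DLX5 is lower at 20 h than at 18 h, and OLIG3 is low at 30 h and higher again at 54 h.

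A second interval of 24 h, 36 h minus 12 h, uses none of these 6 libraries, although its errors come from the same fit. It had 46 genes higher (0.301%) and 69 lower (0.451%), 115 in all (0.751%). Of the 266 genes higher at 30 h, 26 were also higher at 36 h than at 12 h, which is 9.77% of the 266 and 56.5% of the 46. Of the 328 lower, 56 were also lower there, which is 17.1% of the 328 and 81.2% of the 69. No gene was called in opposite directions. In sign alone 89.5% of the 266 and 89.9% of the 328 went the same way from 12 h as from 6 h, against 60.2% and 61.6% of all genes tested with a positive and a negative difference. The medians were 0.43 and -0.74 in 36 h minus 12 h, against 1.18 and -2.06 in 30 h minus 6 h, the comparison that chose these genes.

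Among the 26 higher in both intervals were SOX1, NES, PTPRZ1, POU3F2, HOXC4 and HOXB8. The log2 difference of NES was 1.04 in 30 h minus 6 h and 0.81 in 36 h minus 12 h, and that of POU3F2 2.37 and 1.33. Among the 56 lower in both were CYP26A1 (-2.09 and -1.12), PDZK1 (-6.16 and -5.39), VIL1 (-4.38 and -3.12), DLX5 and FOXC1. Further genes of the 56 were named after their values were seen. GPX3, a secreted glutathione peroxidase, had 41.3, 59.9 and 61.7 TPM at 30 h, against 571, 432 and 543 TPM at 6 h (log2 difference -3.24, and -3.79 in 36 h minus 12 h). BHMT, betaine-homocysteine methyltransferase, had 60.1, 77.8 and 70.0 TPM at 30 h, against 518, 526 and 462 TPM at 6 h (-2.84 and -3.14). ABCC2, an apical exporter of conjugates, had 0.7, 1.13 and 0 TPM at 30 h, against 21, 21.7 and 21.7 TPM at 6 h (-3.87 and -3.01). No library of 30 h overlapped those of 6 h in any of the 3. LRP2, the endocytic receptor megalin, had 73.5, 78.7 and 100.4 TPM at 30 h, against 239, 197 and 245 TPM at 6 h (-1.43 and -1.12). GPC3, a cell-surface glypican, had 276, 279 and 284 TPM at 30 h, against 1140.0, 1217 and 1216 TPM at 6 h (-2.08 and -1.79).

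The change over 24 h was tested against that from 12 to 36 h, and 6 genes differed (0.0392%). In 2 the difference was larger in 30 h minus 6 h (0.0131%) and in 4 smaller (0.0261%). HOXB4 had 153 ± 23.9 TPM after 30 h, against 7.51 ± 1.03 TPM after 6 h, in the first interval and 147 ± 16.9 TPM after 36 h, against 69 ± 8.38 TPM after 12 h, in the second (SD, n = 3 each; difference 3.09, SE 0.57, adjusted p = 0.0163). Its level at 12 h already lay well above that at 6 h. EPCAM had 21.8 ± 9.85 TPM after 30 h, against 178 ± 23 TPM after 6 h, in the first interval and 36.9 ± 10.9 TPM after 36 h, against 69.9 ± 25.5 TPM after 12 h, in the second (difference -2.17, SE 0.44, adjusted p = 0.0452). LAMB2, a laminin chain, had 20.5 ± 4.79 TPM after 30 h, against 86.8 ± 10.2 TPM after 6 h, in the first interval and 33.1 ± 6.62 TPM after 36 h, against 43.9 ± 6.54 TPM after 12 h, in the second (difference -1.64, SE 0.31, adjusted p = 0.0184). HMGCS1, an early enzyme of cholesterol synthesis, was lower at the end of the first interval and higher at the end of the second, with 564 ± 55.2 TPM after 30 h, against 697 ± 50.3 TPM after 6 h, in the first interval and 823 ± 73.6 TPM after 36 h, against 472 ± 45.9 TPM after 12 h, in the second (difference -1.11, SE 0.20, adjusted p = 0.0163). PFKP, a phosphofructokinase, stood the same way, with 40.9 ± 3.38 TPM after 30 h, against 92.9 ± 10.9 TPM after 6 h, in the first interval and 56.8 ± 4.57 TPM after 36 h, against 41.5 ± 14.6 TPM after 12 h, in the second (difference -1.65, SE 0.35, adjusted p = 0.0486). None of the 6 was called in this test without A2 of 30 h or without A1 of 6 h.

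The following 24 h, 54 h minus 30 h, shares the 30 h libraries with 30 h minus 6 h, where they enter with the opposite sign, so the intervals are not independent. It had 74 genes higher (0.484%) and 108 lower (0.706%), 182 in all (1.19%). In that interval HOXB4 had 74.4 ± 13.1 TPM after 54 h, against 153 ± 23.9 TPM after 30 h (log2 difference -1.03, adjusted p = 0.324). HOXB8 had 170.5 ± 19.2 TPM after 54 h, against 10.6 ± 3.2 TPM after 30 h (log2 difference 3.93, adjusted p = 2.22e-10). CYP26A1 had 346 ± 49.1 TPM after 54 h, against 456 ± 72.2 TPM after 30 h (adjusted p = 0.451). CDH1 and EPCAM had 1.68 ± 1.46 TPM after 54 h and 24.6 ± 7.6 TPM after 54 h, against 0.427 ± 0.43 TPM after 30 h and 21.8 ± 9.85 TPM after 30 h.

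The test of the difference between the successive intervals called 138 genes (0.902%), in a fit in which the 30 h libraries count in both, 67 with a larger difference in the first interval (0.438%) and 71 with a smaller one (0.464%). OLIG3 averaged 108 ± 25.8 TPM after 6 h, 6.43 ± 1.07 TPM after 30 h and 52.6 ± 24.8 TPM after 54 h (difference -6.57, SE 1.17, adjusted p = 0.000687). ALDH1A1, the retinaldehyde dehydrogenase, averaged 376 ± 22.6 TPM after 6 h, 953 ± 119 TPM after 30 h and 46.6 ± 9.84 TPM after 54 h (difference 5.67, SE 0.58, adjusted p = 2.22e-08). So of these 3 exposures OLIG3 was lowest, and ALDH1A1 highest, at 30 h. HAPLN1, a link protein of the extracellular matrix, averaged 7.42 ± 3.48 TPM after 6 h, 0.08 ± 0.139 TPM after 30 h and 7.57 ± 2.9 TPM after 54 h (difference -5.83, SE 0.93, adjusted p = 0.000134). SFRP4 averaged 4.53 ± 2.64 TPM after 6 h, 41.9 ± 14.3 TPM after 30 h and 2.8 ± 2.89 TPM after 54 h (difference 6.84, SE 1.43, adjusted p = 0.00627). HAPLN1 was again lowest and SFRP4 highest at 30 h. CALB1, a calcium-binding protein, averaged 222 ± 92.2 TPM after 6 h, 162 ± 66.7 TPM after 30 h and 1.51 ± 1.07 TPM after 54 h (difference 5.59, SE 0.84, adjusted p = 4.2e-05). CYP1B1, a cytochrome P450, averaged 274 ± 15.8 TPM after 6 h, 187 ± 38.9 TPM after 30 h and 2.57 ± 2.62 TPM after 54 h (difference 5.42, SE 0.74, adjusted p = 9.5e-06). The calls of OLIG3, ALDH1A1, HAPLN1, CALB1 and CYP1B1 in this test passed without any 1 of the 6 libraries of 30 h and 6 h, and that of SFRP4 was lost without A2 of 30 h. CALB1 and CYP1B1 were not called in 30 h minus 6 h and fell in 54 h minus 30 h.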

How the data were processed

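Polyadenylated RNA of 59 libraries was sequenced as ligation-mediated cDNA, per the labels' protocols, and 6 of them (3 at 30 h and 3 at 6 h) are compared here. The authors deposited TPM, 1 value for each of 19084 gene symbols and library. RSEM 1.2.3, Bowtie 0.12.8 and CASAVA 1.8.2, with hg19 as the build, are named in the submitters' processing notes. TPM is scaled per length and per library, so depth is unknown and intervals from counts were not computed. RSEM apportions reads of near-identical paralogs by estimation, and the use of strand in counting is not stated, so values of paralogs and antisense partners are uncertain.

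The TPM values were analysed as log2(TPM + 1) with limma 3.58.1 in R 4.3.3, in a fit of 20 time-point means to all 59 libraries with 39 residual df, an intensity trend, two-sided moderated tests and Benjamini-Hochberg adjustment at 0.05, for the 15305 genes with at least 1 TPM in at least 3 libraries. Contrasts were 30 h minus 6 h, 36 h minus 12 h, 54 h minus 30 h and the differences of the first from the other two. Differences are on the log2(TPM + 1) scale. The script was tested on simulated data. Genes named are the 15 largest rises and falls outside the HOX clusters that passed, had a mean of at least 5 TPM at either exposure and did not overlap, up to 5 called members of each of 40 lists with members that did not pass, HOX genes with a mean of at least 1 TPM, and the 6 largest each way in the difference tests. Further called members, in the epithelial list above all, were named after their values were seen. Some genes counted in these lists and tests are not reported here by name. The exposures, lists and tests were chosen with earlier results of these data known. Promoter windows were matched by symbol to RefSeq's GRCh38.p14 table (73 of 113 named genes that were called had a window). Python 3.11.15 with matplotlib 3.10.9 drew the figures.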

Additional observations from a re-analysis of the deposited data

Results flagged for a closer look

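In the genes below the change over 24 h differed between intervals by a test of the difference itself with limma. Values are differences of log2 differences, with the adjusted p of that test.

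Against 36 h minus 12 h, the change was larger for HOXB4 (3.09, limma adjusted p = 0.0163). It was smaller, or more negative, for EPCAM (-2.17, limma adjusted p = 0.0452), PFKP (-1.65, adjusted p = 0.0486), LAMB2 (-1.64, adjusted p = 0.0184) and HMGCS1 (-1.11, adjusted p = 0.0163). Each of these calls was lost without A2 of 30 h and without A1 of 6 h, and the cause was not tested.

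Against 54 h minus 30 h, the change was more negative for OLIG3 (-6.57), ZNF222 (-6.49), HAPLN1 (-5.83), PDZK1 (-5.73), DLX5 (-5.72) and CDH1 (-5.72). It was more positive for SFRP4 (6.84), C1orf228 (6.07), IL24 (5.83), ALDH1A1 (5.67), CALB1 (5.59) and CYP1B1 (5.42). The adjusted p of these 12 lay between 2.22e-08 (ALDH1A1) and 0.016 (ZNF222). Without 1 library the call was lost for CDH1 (A1 or A2 of 30 h), C1orf228 (A2 or B1 of 30 h), IL24 (A2 or B1 of 30 h or A1 of 6 h), SFRP4 (A2 of 30 h) and ZNF222 (A1, A2 or B1 of 30 h), and the cause was not tested. DLX5 was listed at 0 in every library of 30 h and of 54 h, so its value is its 6 h level on the log2(TPM + 1) scale with a minus sign and no measure of a fold. The 30 h libraries enter both intervals with opposite sign, so a gene that is high or low at 30 h alone gives a large value here.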

How the results depend on the processing

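Counts of genes past the threshold of limma were compared across settings. For 30 h minus 6 h, 594 genes with all libraries, the count was 499 with a pseudocount of 0.1, 624 without the filter, 712 with only the 6 libraries (416 of them among the 594), 581 without the intensity trend and 730 after quantile normalization. Median-ratio scaling gave 637 (230 higher and 407 lower, against 266 and 328), at a median of all genes of -0.06. The count was 1284 without the 3 libraries under 10000 genes. It lay between 180 (without the libraries labelled A1) and 546 when libraries were left out. With 24 and 36 h minus 4 and 8 h instead, a comparison of 12 other libraries chosen after seeing the data, 2750 genes passed (1835 higher and 915 lower, 449 shared with the 594), and the median of all genes was 0.10. In that setting 3 named genes reversed: FGFR3 (0.12), PAX2 (-0.068) and NDRG1 (0.21).

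For 36 h minus 12 h, 115 genes, the count was 251 with only the libraries compared, 287 without the libraries under 10000 genes and 28 to 87 when libraries were left out. For 54 h minus 30 h, 182 genes, it was 467 and 52 to 154. The test against 36 h minus 12 h, 6 genes (733 at an unadjusted p under 0.05), gave 30 with only the libraries compared, 17 with exposures at multiples of 6 h, 12 with median-ratio scaling, 11 after quantile normalization, 58 without the libraries under 10000 genes, and 0 to 9 when libraries were left out. The test against 54 h minus 30 h, 138 genes, gave 300, 416 and 27 to 117, in the order of only the libraries compared, without the libraries under 10000 genes, and with libraries left out.

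Deviations of libraries with the same label correlated at -0.0076, -0.0029 and 0.00085 between 30 h and 6 h, so the labels did not pair the libraries. With the label as a replicate block, the counts were 605, 118, 176, 4 and 142 for these 5 comparisons. TPM keeps no depth, so what low values limit could not be computed.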
